A study of Homo sapiens with 4 samples.

Results

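The EGR transcription factors EGR1, EGR2 and EGR3 and their corepressors NAB1 and NAB2 were followed in THP-1 cells, a monocytic line from a human acute myeloid leukaemia with the MLL-AF9 fusion. The members were taken by gene symbol, and all 5 were found among the 27106 genes of the deposited table of normalized counts, in which each read count was divided by 1 size factor per library. The knockdown group was 2 libraries of cells given an antisense oligonucleotide against the long noncoding RNA SGOL1-AS1, and the non-targeting group was 2 libraries of cells given an oligonucleotide with no target. All libraries were of total RNA and are labelled day 5, and the labels name no genotype or agent beyond the line and the oligonucleotide. Differences between these same 2 groups were known when the 5 genes were chosen, so their values are given as a description and without a test.

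The knockdown libraries have column names whose code is absent from the labels, so these columns were placed in the knockdown group by elimination, and they are numbered here in column order. Gene reads per library came to 48558537 and 41435922 in the knockdown group and 50855150 and 51851314 in the non-targeting group. The target itself, SGO1-AS1 by its current symbol, had 12 and 17 reads in the knockdown libraries and 24 and 21 in the non-targeting libraries. Its log2 fold change of -0.48 ± 0.37 (SE) missed the threshold by limma (adjusted p = 0.555), so it does not check the labels. All 11 markers listed for a monocytic MLL-fusion line were found, with summed levels of 72114 and 70979 in the knockdown and 72823 and 70725 in the non-targeting libraries. CD14 was at 94.7 to 110 and CD68 at only 16.0 to 21.6 normalized counts. By limma FCGR1A (log2 fold change -0.37, adjusted p = 0.00118) and CD4 (-0.35, adjusted p = 0.000193) fell and MEIS1 rose (0.41, adjusted p = 0.00241). Of the listed B cell markers, CD79A lay at 53.6 to 66.2, MS4A1 was not analysed here, and the B-lineage factor PAX5 stood at 2786 and 3455 in the knockdown libraries, against 4666 and 4624 in the non-targeting libraries. The part of PAX5 in the results below was not tested. Of 5 T and NK cell genes CD8A and NKG7 were in the table, with sums of 1486 and 1289 in the knockdown and 1491 and 1301 in the non-targeting libraries, nearly all NKG7. Of 6 epithelial and fibroblast genes KRT18 and COL1A1 were, with sums of 188 and 196 in the knockdown and 182 and 183 in the non-targeting libraries. The other genes of these lists, with the 5 erythroid and megakaryocyte genes, were not analysed here.

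EGR proteins are zinc finger factors that bind a GC-rich element, and their genes are switched on within minutes by growth factors, cytokines and stress. The signal runs through the kinase ERK to serum response factor (SRF) and its ELK partners, which sit on a sequence called the CArG box in front of EGR1 and EGR2. NAB1 and NAB2 bind EGR1, EGR2 and EGR3 and turn them from activators into repressors, and NAB2 is itself induced by EGR proteins, which closes a negative feedback loop. In mouse myeloid progenitors, EGR1 and EGR2 act with NAB2 to favour the macrophage over the neutrophil fate.

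The promoter sequences show how EGR1, EGR2, NAB1 and NAB2 differ in these elements, and that of EGR3 was not analysed here. They come from RefSeq (GRCh38.p14), which gave windows of 250 bases before to 50 bases after annotated start sites, 1 each for EGR1 and NAB2 and 3 each for EGR2 and NAB1. The stretches below hold every upstream match of the CArG box and of the EGR motif GCGNGGGCG, searched on both strands, with 25 bases on each side where the window allows. Capitals mark the matches, and each stretch is written 5′ to 3′ on the strand of its gene. In order they are EGR1 (chr5:138465256-138465430, plus strand), EGR2 (chr10:62816403-62816462, minus strand), NAB2 (chr12:57089027-57089085, plus strand) and the second window of NAB1 (chr2:190648833-190648941, plus strand), which also covers the matches of the first.
EGR1: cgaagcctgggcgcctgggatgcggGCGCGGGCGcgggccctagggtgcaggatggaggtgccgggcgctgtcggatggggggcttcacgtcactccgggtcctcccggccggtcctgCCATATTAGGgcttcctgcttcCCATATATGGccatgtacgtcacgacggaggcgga
EGR2: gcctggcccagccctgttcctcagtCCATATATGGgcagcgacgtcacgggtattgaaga
NAB2: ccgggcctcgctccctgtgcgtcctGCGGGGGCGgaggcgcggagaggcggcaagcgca
NAB1: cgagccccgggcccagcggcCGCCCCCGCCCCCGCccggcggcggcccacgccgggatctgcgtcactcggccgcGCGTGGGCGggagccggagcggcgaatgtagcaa

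EGR1 held 2 CArG boxes, CCATATTAGG at -105 to -96 and CCATATATGG at -83 to -74 from the start site, and 1 EGR motif at -198 to -190. In EGR2 the box CCATATATGG stood at -71 to -62 in 1 of 3 windows, and another window held 1 EGR motif at 9 to 17. The CArG box was present in 1.29% of the 35116 promoter windows of the table. NAB2 and NAB1 held none in their windows, and the EGR motif, present in 9.43% of all windows, was found once in NAB2 at -62 to -54. The first and second windows of NAB1 overlap and held 3 and 4 EGR motifs, 3 of them the same sites, among them GCGTGGGCG, which stands in 0.795% of all windows. In the NAB1 stretch above, the first run of capitals is 2 overlapping matches on the other strand, and the third window of NAB1 held none. GGAA, the core bound by ELK and other ETS factors, was in 95.5% of all windows. It occurred 4 times in EGR1, of which the match at -93 to -90 lay between the CArG boxes and that at -86 to -83 touched the second. The cyclic AMP response element in its full form TGACGTCA, in 1.85% of all windows, had no match in any of these 8 windows. Partial and variant forms of this element were not searched for, so their absence is not read from this. These matches describe the sequence and are not shown to be bound.

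**Figure D1:**
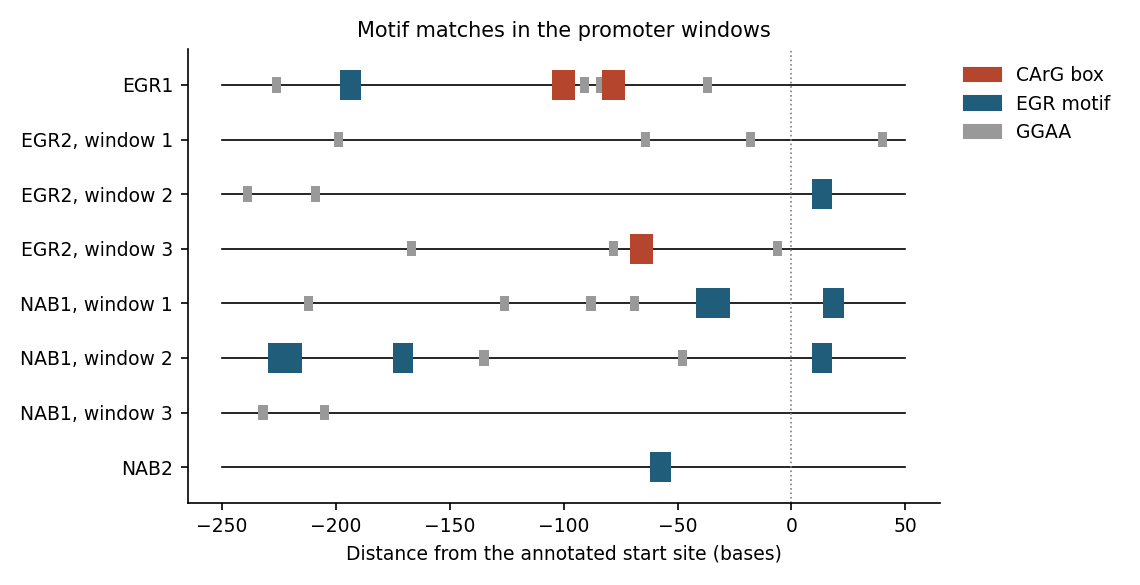
Matches of the CArG box (red), the EGR motif GCGNGGGCG (blue) and GGAA (grey) on either strand in the RefSeq promoter windows of EGR1, EGR2, NAB1 and NAB2, by distance from the annotated start site in bases, with windows of a gene numbered from its 5′ side. The CArG boxes lie in EGR1 and in window 3 of EGR2, while the NAB2 window and windows 1 and 2 of NAB1 hold EGR motifs without a CArG box.

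All 3 EGR genes were lower in both knockdown libraries than in either non-targeting library, while NAB1 and NAB2 lay near their non-targeting means. EGR3 stood at 37.5%, EGR1 at 43.4% and EGR2 at 60.6% of the non-targeting mean, and NAB2 and NAB1 at 91.7% and 101%. In 4 of the 5 members all knockdown values lay below all non-targeting values, and 25.1% were so placed among the 19398 genes with a mean of at least 10, a minimum that all 5 members passed. As the members were chosen on these values, no more is read from that count.

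EGR1, the most studied of the family and a rapid responder to ERK signalling, is encoded at 138465490 to 138469315 on chromosome 5, plus strand (GENCODE 29, GRCh38). It had normalized counts of 906 and 1260.2 in the knockdown libraries, against 2664 and 2324 in the non-targeting libraries. Its means were 1083 ± 250.3 in the knockdown and 2494 ± 241 in the non-targeting group (SD, n = 2 each), a log2 fold change of -1.22. That fold change, like all below, is knockdown minus non-targeting of log2(normalized count + 1), which understates changes of low genes. The lowest non-targeting value was 1.84 times the highest knockdown value, while the libraries of a group differed 1.39-fold in the knockdown and 1.15-fold in the non-targeting group. The counts rest on 945 and 1105 reads in the knockdown and 2774 and 2470 reads in the non-targeting libraries.

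EGR3, which is itself induced by immediate early signals and acts downstream of them in lymphocytes and muscle spindles, lies on the minus strand of chromosome 8 (22687659 to 22693302). Its normalized counts were 69.0 and 133 in the knockdown libraries and 277 and 263 in the non-targeting libraries. The groups did not overlap, but knockdown library 2 was 1.93 times library 1, the widest gap between libraries of a group among the 5 members. Means were 101 ± 45.5 in the knockdown and 270.0 ± 9.30 in the non-targeting group (SD, n = 2 each), and the log2 fold change was -1.48. It was -1.01 without knockdown library 1 and -1.95 without knockdown library 2.

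EGR2, known for its part in macrophage differentiation and in myelination, lies on the minus strand of chromosome 10 (62811996 to 62919900). It was scarce, with 37 and 33 reads in the knockdown and 61 and 66 reads in the non-targeting libraries. The exact 95% Poisson intervals of these reads, which cover counting error only, were 26.1 to 51.0 and 22.7 to 46.3 in the knockdown and 46.7 to 78.4 and 51.0 to 84.0 in the non-targeting libraries. In reads, the intervals of knockdown library 1 and non-targeting library 1 overlap, and those of knockdown library 1 and non-targeting library 2 nearly meet. In reads, that of knockdown library 2 lies below both non-targeting intervals, but the intervals are not scaled for depth. Knockdown library 2 was the shallowest, with a size factor of 0.877 against 1.04 and 1.06 in the non-targeting libraries. No separation of the groups is therefore read from the intervals. Overlap alone does not decide whether 2 counts differ, and single libraries were not compared by a test. Normalized counts were 35.5 and 37.6 in the knockdown and 58.6 and 62.1 in the non-targeting libraries. The log2 fold change was -0.71, and the libraries of each group lay close together at 36.6 ± 1.52 in the knockdown and 60.3 ± 2.48 in the non-targeting group (SD, n = 2 each).

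NAB2, the inducible corepressor, lies on the plus strand of chromosome 12 (57088894 to 57095476). It had normalized counts of 1559 and 1497 in the knockdown libraries and 1658 and 1675 in the non-targeting libraries. Both knockdown values were below both non-targeting values by a narrow margin, the lowest non-targeting value being 1.06 times the highest knockdown value. Means were 1528 ± 43.8 in the knockdown and 1667 ± 11.4 in the non-targeting group (SD, n = 2 each), a log2 fold change of -0.13. NAB1, its more constitutive relative on the plus strand of chromosome 2 (190646746 to 190692766), had 2178 and 2193 in the knockdown libraries against 2101 and 2207 in the non-targeting libraries. These groups overlapped, with means of 2186 ± 10.8 in the knockdown and 2154 ± 74.9 in the non-targeting group (SD, n = 2 each) and a log2 fold change of 0.02. In bulk RNA, fewer cells that make an RNA and less of it per cell cannot be told apart.

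**Figure D2:**
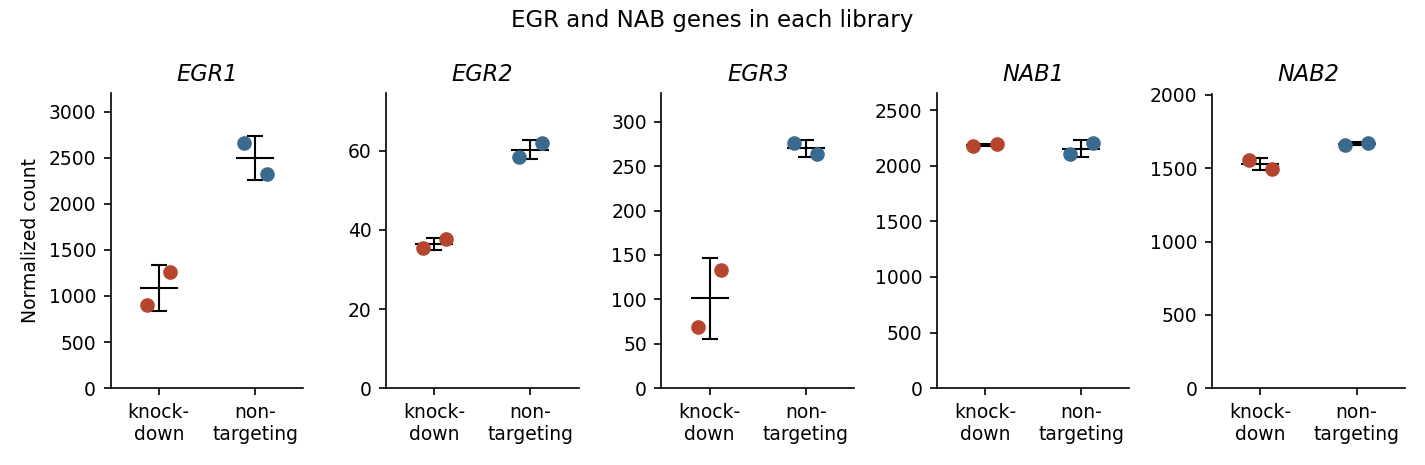
Normalized counts of the 5 members in the 2 knockdown (red) and 2 non-targeting (blue) libraries, each panel on its own axis from 0, with points for libraries, horizontal bars for group means and error bars for SD. EGR1, EGR2 and EGR3 separate by group, NAB2 separates narrowly (1528 against 1667) and NAB1 overlaps.

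Among all 19398 tested genes, ranked from the lowest log2 fold change, EGR3 stood at position 5, EGR1 at 16 and EGR2 at 235, while NAB2 stood at 4531 and NAB1 at 11232. Only 58 genes (0.299%) were lower by a factor of 2 or more, and the median over all tested genes was -0.01. As the members were chosen with this contrast known, their ranks are a description and nothing more is read from them. The ranks were also taken over the 14087 genes with a mean of at least 50. There EGR3 was at position 1 and EGR1 at 3, and EGR2, with a mean under 50, was not ranked.

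**Figure D3:**
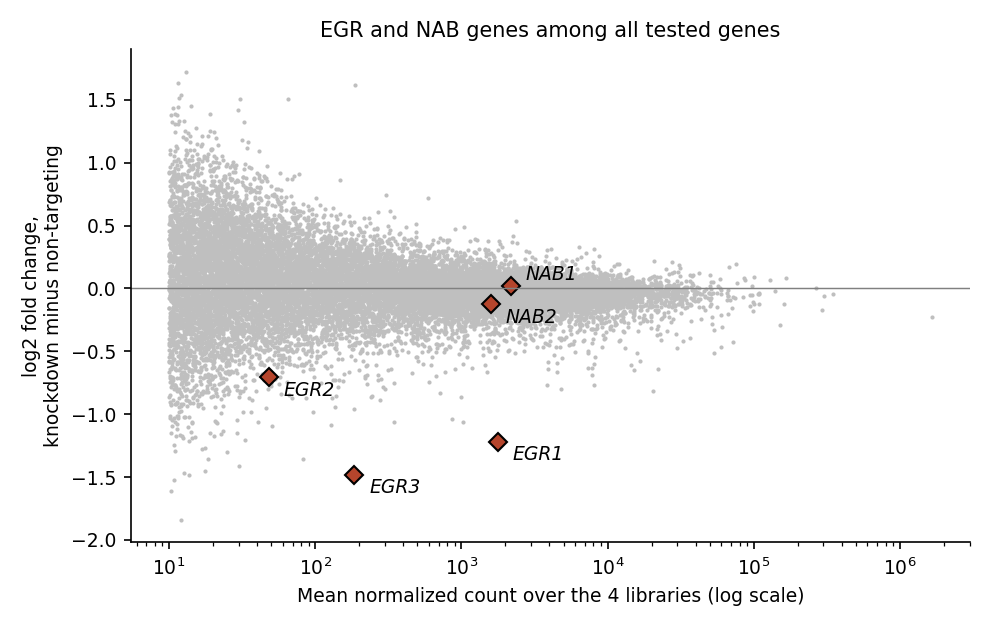
Log2 fold change, knockdown minus non-targeting, against the mean normalized count over the 4 libraries (log scale) for 19398 tested genes (grey) and the 5 members (red diamonds). EGR1 at -1.22 and EGR3 at -1.48 lie below most genes of like level, and NAB1 and NAB2 lie within the cloud. The members were chosen with this contrast known.

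The lower EGR1 level changed its place relative to the corepressors. On the scale of normalized counts per kilobase of exonic length (the union of exons in GENCODE 29), EGR1 was at 289 and 402 in the knockdown libraries and 849 and 741 in the non-targeting libraries. NAB2 was at 518 and 497 in the knockdown and 551 and 556 in the non-targeting libraries, and NAB1 at 446 and 449 in the knockdown and 430.0 and 452 in the non-targeting libraries. The order of levels was therefore NAB2, NAB1, EGR1, EGR3, EGR2 in both knockdown libraries and EGR1, NAB2, NAB1, EGR3, EGR2 in both non-targeting libraries. The values of neighbours in these orders did not overlap within a group. In the knockdown, the step from EGR1 (345 ± 79.8) to NAB1 (447 ± 2.21) was little more than the SD of EGR1, and that from EGR2 (9.91 ± 0.413) to EGR3 (20.9 ± 9.38) little more than the SD of EGR3 (n = 2 each).

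EGR3 and EGR2 were minor components on the same scale. EGR3 was at 14.2 and 27.5 counts per kilobase in the knockdown libraries and 57.0 and 54.3 in the non-targeting libraries. EGR2 was at 9.62 and 10.2 in the knockdown and 15.9 and 16.8 in the non-targeting libraries. EGR1 made up 92.4% and 91.4% of the summed level of the 3 EGR genes in the knockdown libraries and 92.1% and 91.2% in the non-targeting libraries, so its share was alike in both groups while the sum was not. The sum was 313 and 439 in the knockdown and 922 and 812 in the non-targeting libraries. The summed level of NAB1 and NAB2 was 964 and 946 in the knockdown and 981 and 1008 in the non-targeting libraries. The ratio of the NAB sum to the EGR sum was thus 3.08 and 2.15 in the knockdown libraries and 1.06 and 1.24 in the non-targeting libraries. Lengths of alternative exons enter these values, so they compare transcripts only approximately.

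**Figure D4:**
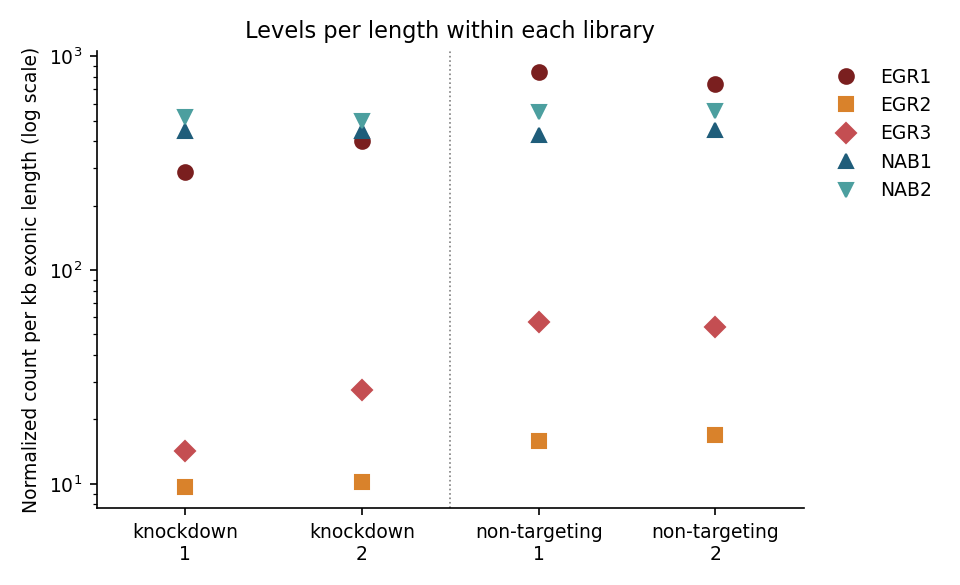
Normalized counts per kilobase of exonic length (log scale) of the 5 members in knockdown libraries 1 and 2 (left) and non-targeting libraries 1 and 2 (right). EGR1 lies below NAB1 and NAB2 in the knockdown libraries (289 and 402) and above both in the non-targeting libraries (849 and 741).

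Genes whose profile over the 4 libraries was most like that of an EGR gene were found by the Euclidean distance between log2 profiles, each centred on its own mean, among genes with a mean of at least 50. These profiles share the contrast that chose the members, and the neighbours are named as a description. The gene nearest to EGR3 was EGR1 (distance 0.43), followed by ENPP2, which makes the lipid mediator lysophosphatidic acid (0.47), and the semaphorin and VEGF coreceptor NRP2 (0.49). ENPP2 had 33.6 and 60.4 normalized counts in the knockdown libraries and 96.0 and 142 in the non-targeting libraries, so like EGR3 it was lower in knockdown library 1 than in library 2. Nearest to EGR1 were the inhibitory receptor LAG3 and the amino acid oxidase IL4I1 (both 0.31) and SECTM1 (0.34), a secreted and membrane protein. LAG3 was at 84.4 and 103 in the knockdown and 197 and 165 in the non-targeting libraries. Nearest to EGR2 were APOE (0.06), the lipid transport protein, BATF2 and the sterol regulator INSIG1 (both 0.08). APOE stood at 166 and 171 in the knockdown and 276 and 297 in the non-targeting libraries. The EGR genes were not all alike in profile. Seen from EGR1, 6 genes were nearer than EGR3 and 50 nearer than EGR2. Seen from EGR2, 3123 genes were nearer than EGR1 (0.61) and 13219 nearer than EGR3 (0.99). NAB1 and NAB2 spanned only 0.07 and 0.16 on the log2 scale over the 4 libraries and were not compared.

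The closest relatives of the members did not pass the test across all genes, which 4.25% of all tested genes passed. A list of 3 genes would hold few calls at that share. EGR4, the family member that does not bind NAB proteins, had 33.6 and 44.5 normalized counts in the knockdown libraries against 52.8 and 49.9 in the non-targeting libraries (limma, log2 fold change -0.40, adjusted p = 0.435). WT1, a zinc finger factor of leukaemia that binds a related GC-rich element, had 2141 and 1926 in the knockdown and 2104 and 1923 in the non-targeting libraries, with overlapping groups (0.01, adjusted p = 0.946). STAT6, which lies on the other strand and overlaps the 3′ end of NAB2 by 69 bases, was at 9141 and 9639 in the knockdown and 10499 and 10266 in the non-targeting libraries (-0.15, adjusted p = 0.114). Whether counting used strand is not given in the sources used here, so reads from these 69 bases cannot be assigned to NAB2 or STAT6. With knockdown library 2 left out, STAT6 passed as lower (adjusted p = 0.0296). At an unadjusted p under 0.05, 1 of these 3 genes was lower by limma, where 2139 of all 19398 tested genes were. For these 3 genes edgeR and DESeq2 called 0.

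Of the tested neighbours on the chromosomes 1 passed by limma, where 4.25% of all tested genes did. That 1 call is not read as a result about these positions. LRP1, an endocytic receptor, starts 33016 bases beyond NAB2 at 57128493, inside the span of STAT6 (57095408 to 57132139) on the other strand. Reads from the overlap of STAT6 and LRP1 cannot be assigned either. LRP1 fell to 916 and 948 in the knockdown libraries, against 1109 and 1129.9 in the non-targeting libraries (limma, log2 fold change -0.26, adjusted p = 0.0365). That call ended in 7 of 15 alternatives, among them without knockdown library 1 (0.0833), non-targeting library 1 (0.191) or non-targeting library 2 (0.22). NEMP1, a nuclear envelope protein on the other side of NAB2, was at -0.03 (adjusted p = 0.823). RPL7P19, a pseudogene beyond EGR1, had 17 and 5 reads in the knockdown and 17 and 11 in the non-targeting libraries. ADO, a thiol dioxygenase next to EGR2, was at 1739.6 and 1740.4 in the knockdown and 1974 and 1834 in the non-targeting libraries (-0.13, adjusted p = 0.304). The noncoding AC105046.1, 3649 bases beyond the 3′ end of EGR3 on the same strand, had 6 and 3 reads in the knockdown and 13 and 21 in the non-targeting libraries (limma, adjusted p = 0.0722). It reached the minimum mean of 10 only through the non-targeting libraries, with means of 4.59 in the knockdown and 16.1 in the non-targeting group, so no fold change is read from it. EGR3 and NAB1 are each overlapped by noncoding genes on the other strand. Of these, AC006460.2 had 39 and 16 reads in the knockdown and 19 and 46 in the non-targeting libraries, and AC055854.1 and AC006460.1 were not analysed here.

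The rest of the pathway was read in 8 gene lists, of which 128 distinct genes were tested. The lists were chosen with earlier results of these data known. Their counts, here and list by list below, are therefore a description and not independent support. Of these 26 (20.3%) fell and 0 rose by limma over all genes (adjusted p under 0.05), against a background of 3.4% lower and 0.851% higher (4.25% in either direction) among all 19398 tested genes. That background was 660 lower and 165 higher, but 293 lower and 235 higher when libraries were scaled to the same total, a scaling under which 10 of the listed genes were lower and 0 higher. At an unadjusted p under 0.05 by limma, 43 were lower and 2 higher, where 2139 and 1197 of all 19398 tested genes were. By edgeR 20 were lower and 0 higher (556 and 159 over all genes), and by DESeq2 12 and 0 (379 and 66). These counts over all genes apply to each list below as well. The median log2 fold change of the 128 genes was -0.11, against -0.01 over all genes. None of the 128 was lower than EGR1, and LIF (-0.95), CCN2 (-0.84, limma adjusted p = 0.138) and CCL2 (-0.72) were lower than EGR2. EGR1 and EGR2 were chosen with this contrast known, so nothing more is read from that order. CCN2, a matricellular growth factor, was picked out after its value was seen. The count of lower genes was 15 without non-targeting library 1.

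Upstream of the EGR genes, 1 of 10 factors that act on EGR promoters fell and 0 of 18 tested genes of the Ras-ERK cascade passed, where 4.25% of all tested genes did, so lists of this size would hold few calls at the background share. The factor that fell was MRTFA, the actin-regulated coactivator of SRF, at 8977 and 8784 normalized counts in the knockdown and 10871 and 10021 in the non-targeting libraries (limma, log2 fold change -0.23, adjusted p = 0.00943). Without non-targeting library 1 the call ended (0.341), likewise with the same total (0.0733) or quantile normalization (0.0696). SRF itself was at 9570 and 9187 in the knockdown and 10395 and 9526 in the non-targeting libraries, which overlap (-0.09, adjusted p = 0.434). In the Ras-ERK cascade edgeR and DESeq2 also called 0, and HRAS and RPS6KA1 were not analysed here. At an unadjusted p under 0.05 by limma 3 of the cascade genes were lower, where 2139 of all 19398 tested genes were. Log2 fold changes of the cascade ran from -0.19 to 0.13 with a median of -0.01. The adaptor GRB2, at 23131 and 24205 in the knockdown and 25787 and 25982 in the non-targeting libraries, had an adjusted p of 0.145 by limma. The phosphatase PTPN11 was at 0.02 (adjusted p = 0.915).

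Other immediate early genes, many of which share the ERK and SRF route with the EGR genes, were tested as a list of 27. Of these 14 fell, 0 rose and 13 were not called (limma over all genes), where 3.4% of all tested genes fell. Log2 fold changes of the list ran from -0.84 to 0.01, with a median of -0.27. The count of lower genes was 5 with the same total and 6 after quantile normalization. In 23 of 27 all knockdown values lay below all non-targeting values, against 25.1% of all tested genes. JUNB, an AP-1 subunit, had 3238 and 3328 normalized counts in the knockdown and 4575 and 4342 in the non-targeting libraries (-0.44 ± 0.06 SE, adjusted p = 3.21e-05). FOS, another AP-1 subunit and the textbook SRF target, had 5358 and 6918 in the knockdown and 8914 and 8332 in the non-targeting libraries (-0.50, adjusted p = 0.000259). Both fold changes were nearer to 0 than those of EGR1 and EGR3, which were chosen with this contrast known. FOS, like EGR1 and EGR3, was lower in knockdown library 1 than in library 2.

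IER2, a nuclear protein of the immediate early response, had 4120 and 4585 in the knockdown and 5723 and 5771 in the non-targeting libraries (limma, -0.40, adjusted p = 0.000127). JUND, an AP-1 subunit, had 3728 and 3171 in the knockdown and 4968 and 4267 in the non-targeting libraries (-0.42, adjusted p = 0.000921), with the opposite order of the knockdown libraries. In the list 17 of 27 genes were lower in knockdown library 1 than in library 2, against 52.4% of all tested genes. The call of FOS ended with robust empirical Bayes (0.31) and by DESeq2 (0.158), and that of JUND by DESeq2 (0.172). The count of lower genes on this list was 8 without knockdown library 1 and 8 without non-targeting library 1. By unadjusted p under 0.05, 17 were lower and 0 higher, and edgeR called 11 and DESeq2 5.

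The list of ERK feedback genes holds phosphatases and Sprouty and Spred proteins that damp ERK signalling, and also genes that ERK induces without such a role, such as LIF and the transcription factors ETV4 and ETV5. Of 16 tested 3 fell and 0 rose by limma, where 3.4% of all tested genes fell. By edgeR 1 was lower and by DESeq2 0, with 4 lower by limma at an unadjusted p under 0.05. The limma count of lower genes was 0 with the same total and 1 after quantile normalization. The median log2 fold change was -0.10, and IER3 was not analysed here. DUSP2, a nuclear phosphatase of ERK, had 853 and 857 normalized counts in the knockdown and 1062 and 1055 in the non-targeting libraries (limma, -0.31, adjusted p = 0.0154). DUSP1, a phosphatase of p38, JNK and ERK, had 959 and 1210.1 in the knockdown and 1305 and 1385 in the non-targeting libraries (-0.32, adjusted p = 0.0336). LIF, a cytokine of the interleukin-6 family, had 34.5 and 27.4 in the knockdown and 50.9 and 71.5 in the non-targeting libraries (-0.95, adjusted p = 0.0363). Without non-targeting library 2 none of the 3 was called (DUSP1 0.129, DUSP2 0.0909, LIF 0.357). That of DUSP1 also ended without knockdown library 1 (-0.15, 0.342), that of DUSP2 without non-targeting library 1 (0.135), and that of LIF without knockdown library 2 (0.0853). DUSP6, the phosphatase most specific for ERK, was picked out after its value was seen. It was at 3278 and 3630.2 in the knockdown and 3353 and 3570.3 in the non-targeting libraries, which overlap (limma, -0.004, adjusted p = 0.981).

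Genes reported in the literature as EGR targets were tested next. Of the 32 listed, 27 were tested, 4 were not analysed here and FASLG was under the minimum. Of the 27, 6 fell and 0 rose by limma (edgeR 6 and DESeq2 5 lower), where 3.4% of all tested genes fell by limma. The median log2 fold change was -0.15, and by unadjusted p under 0.05 12 were lower and 2 higher. CDKN1A, a cell cycle inhibitor, had 2524 and 2984 normalized counts in the knockdown and 3716 and 3866 in the non-targeting libraries (limma, -0.47, adjusted p = 0.000142). The macrophage growth factor CSF1 had 386 and 411 in the knockdown and 591 and 571 in the non-targeting libraries (-0.54, adjusted p = 0.000889). The monocyte chemoattractant CCL2 had 204 and 220.1 in the knockdown and 309 and 396 in the non-targeting libraries (-0.72, adjusted p = 0.00111). VEGFA, an angiogenic factor, had 2030.2 and 2315 in the knockdown and 2771 and 2829 in the non-targeting libraries (-0.37, adjusted p = 0.00118). Most of these targets answer to other factors as well, and whether their levels follow the EGR genes was not tested. The other lower genes were ICAM1 (-0.50, adjusted p = 0.0265) and MMP14 (-0.19, adjusted p = 0.0265), both picked out after their values were seen.

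The partners through which NAB proteins repress did not pass. NAB2 recruits the chromatin remodelling complex NuRD through CHD4. Of its 13 listed subunits 0 passed by limma, edgeR or DESeq2, and 0 had an unadjusted p under 0.05. By limma 4.25% of all tested genes passed, so a list of this size would hold few calls at that share. Log2 fold changes ran from -0.15 to 0.09. RBBP4 was at 15233 and 16029 in the knockdown and 15991 and 15898 in the non-targeting libraries (limma, -0.03, adjusted p = 0.821), and HDAC2 was at 0.01 (adjusted p = 0.965).

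In the circuit in which EGR and NAB genes oppose GFI1 in mouse progenitors, 3 of 15 tested genes fell and 0 rose by limma (edgeR 2 and DESeq2 1). Of all tested genes 3.4% fell by limma. The median log2 fold change of the list was -0.11. By unadjusted p under 0.05, 6 were lower and 0 higher. The limma count of lower genes was 1 with the same total and 1 after quantile normalization. KLF4, a factor of monocyte differentiation, had 1022 and 1097 normalized counts in the knockdown and 1375 and 1236 in the non-targeting libraries (limma, -0.30, adjusted p = 0.0202). CEBPB, a factor of inflammatory macrophages, had 2102 and 1778 in the knockdown and 2493 and 2169 in the non-targeting libraries (-0.27, adjusted p = 0.0484). Its call ended in 9 of 15 alternatives, among them without knockdown library 2 (0.265) and without non-targeting library 1 (0.519), and that of KLF4 in 6, among them without knockdown library 1 (0.0509) and non-targeting library 1 (0.369). GFI1, the repressor on the neutrophil side, was picked out after its value was seen. It had 21204 and 18994 in the knockdown and 20087 and 18853 in the non-targeting libraries, which overlap (limma, 0.04, adjusted p = 0.745). Of its neutrophil granule genes, MPO was at -0.07 (0.742) and CTSG at -0.09 (0.393), and PRTN3 was not analysed here.

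**Figure D5:**
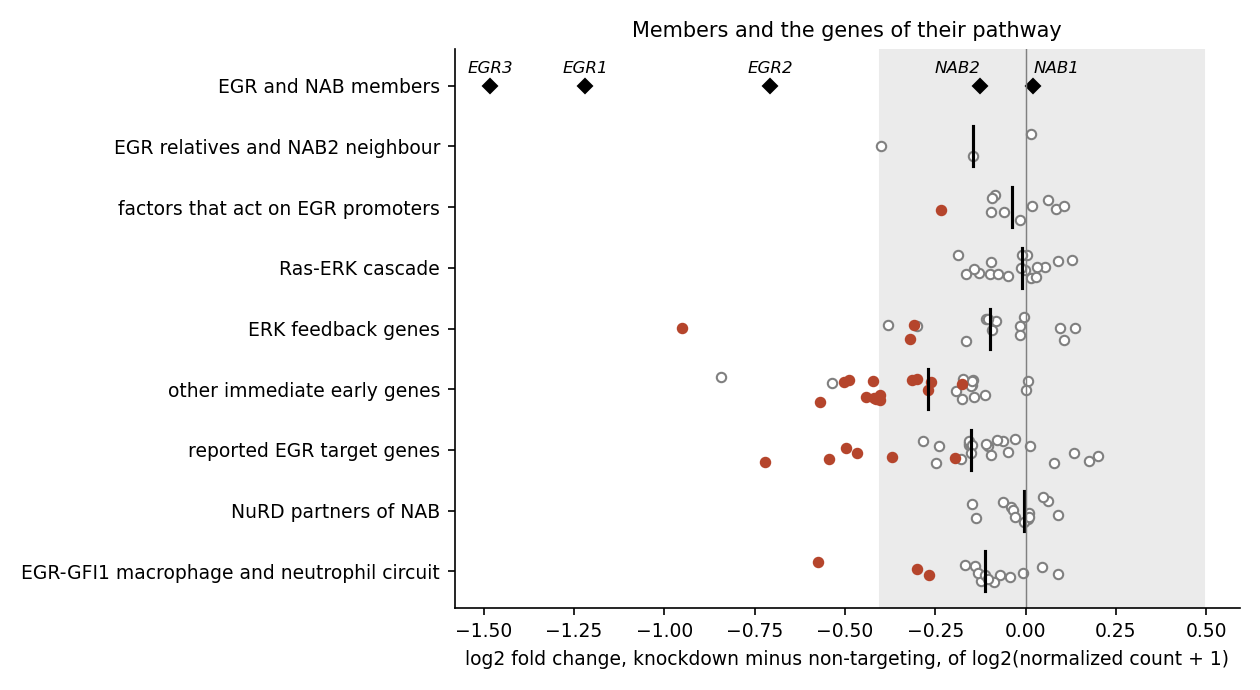
Log2 fold changes, knockdown minus non-targeting, of the 5 members (black diamonds, no test) and of the tested genes on the 8 pathway lists, 1 point per gene, filled where limma called it (adjusted p under 0.05, all lower) and open where not, with a black line at each list's median. The grey band holds the 5th to 95th percentile of all tested genes (-0.40 to 0.49). Of the immediate early genes 14 of 27 are filled, against 0 of 18 in the Ras-ERK cascade, where 4.25% of all tested genes were called.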

How the data were processed

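Total RNA was sequenced from 4 THP-1 samples, 2 per group. The deposited values are a normalized signal: the authors scaled the read counts of each library by its size factor. STAR 2.5.1b, DESeq2 and GRCh38 are named without role, per the submitters' processing notes. For the counting tool, annotation release and use of strand, no statement was given in the sources used here. Whole reads were recovered from 100% of values (within 0.05 of a read). Every gene has at least 2 reads in knockdown library 1, so genes lost there are not analysed here. Members and lists were chosen with earlier results of these data known. Symbols were matched for 26579 Ensembl identifiers, and positions and exonic lengths were taken from GENCODE 29.

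Log2(value + 1) was fitted with limma 3.58.1 (R 4.3.3, with a mean-variance trend). The 19398 genes whose mean reached 10 were tested, and p-values were adjusted over all of these by Benjamini-Hochberg. The labels do not say that libraries are separate cultures, so p-values measure only the spread among these samples, and that spread may be technical. Named were the members, their annotated neighbours, EGR4, WT1, STAT6, the target, up to 4 called genes with the smallest p per list (the 2 most abundant genes beside any call where fewer than 2 passed) and the 3 nearest profiles. Alternatives were other filters, pseudocounts, scalings and empirical Bayes settings, each library left out, and edgeR 4.0.16 and DESeq2 1.42.0 on the recovered reads. The fits were tested on simulated data. A planned comparison of protein sequences was not run. Values of some genes named by this rule or listed as markers are not reported here.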

Additional observations from a re-analysis of the deposited data

How the results depend on the processing

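No paired analysis was possible because the knockdown columns carry replicate numbers that match the labels only in part. The groups thus share fewer than 2 numbers, and no fit with a replicate block was run. EGR1 and EGR3 kept their direction in all 15 alternatives run, with log2 fold changes of -1.46 to -0.98 and -1.95 to -1.01, and EGR2 in 14 (its mean is under 50, so it drops out at that minimum), with -0.78 after quantile normalization. NAB2 was at -0.068 with the same total and -0.088 after quantile normalization, and NAB1 at 0.078 with the same total. Over all genes, 660 were lower and 165 higher by limma, and leaving out 1 library gave 334 to 960 lower and 87 to 309 higher. The counts were 293 lower and 235 higher with the same total, 335 lower and 142 higher after quantile normalization, 379 lower and 66 higher by DESeq2, and 650 lower and 291 higher with the same median. Without the mean-variance trend 0 genes were called in either direction, with 2337 at an unadjusted p under 0.05, so each call named in the report ended there. Over the 8 lists, 26 genes were lower, against 10 with the same total, 12 after quantile normalization, 12 by DESeq2, 0 without the trend and 15 to 28 with 1 library left out. The 0 higher became at most 1, without knockdown library 2. The EGR motif as GCGTGGGCG alone had 0 matches in the EGR1, EGR2 and NAB2 windows and 2 in those of NAB1, which are 1 site seen in 2 overlapping windows. At 33 to 66 reads per library, depth limits EGR2.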
